A study of Mus musculus with 6 samples.

Results

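The histone genes measured in poly(A) RNA of mouse mammary organoids are described here. Members were the rows of the deposited gene table named Hist1h, Hist2h, Hist3h, Hist4h or H2af plus a suffix, together with H3f3a, H3f3b and H1f0. They numbered 66 of 21627 genes. Of these, 55 belong to the replication-dependent families (the Hist genes) and 11 were grouped as replacement variants, 2 of which, H2af-ps and H2afy3, are listed as pseudogenes. Mammary epithelial cells of 8 to 12 week old FVB/N females of the MIC line were grown into organoids, which then spent 8 days in doxycycline (2 µg/ml). The drug turns on an inducible polyomavirus middle T oncogene in MIC cells and, if the Ezh2 alleles are conditional, removes Ezh2. The groups were MIC organoids with wild-type Ezh2 (WT, 3 libraries) and MIC organoids with conditional Ezh2 alleles deleted (KO, 3 libraries). Both groups carried the oncogene and received doxycycline, so no untreated group enters these values. The labels name neither the promoter of the transgene nor the deleted exons. Nor do they tie replicates to different mice or cultures, so every p-value is set against a spread between libraries that may be technical. Values per library are given below for replicates 1 to 3 of a group, in that order.

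Histones package DNA: H2A, H2B, H3 and H4 form the nucleosome core and H1 binds the linker DNA between cores. Replication-dependent genes lie in clusters, are transcribed mainly in S phase, and make messages that end in a conserved stem-loop in place of a poly(A) tail. Replacement variants are transcribed through the cell cycle into ordinary polyadenylated messages and are placed into chromatin outside replication. Ezh2 encodes the enzyme of the Polycomb complex that methylates lysine 27 of histone H3. Messages were captured here through their poly(A) tails, so the counts cover polyadenylated histone messages and whatever tailless RNA was carried along. Of the RNAs listed as lacking a tail (7SK and 7SL, RNase MRP, RNase P, telomerase RNA, U and Y RNAs, vault RNA), only Rnu11 was in the table, with 3 counts in KO replicate 3 and 1 count in WT replicate 2. The counting annotation and the treatment of multiply mapped reads are not known, so this does not measure how much tailless RNA was carried along.

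The 3′ end separates both kinds of histone gene. Among replication-dependent members in which a stem-loop was found, that of the gene with the most reads in each class is given. Those of Hist1h3b, Hist1h4h and Hist1h4j, with fewer reads, and of the replacement member H2afx are given as well. Hist1h2al had more reads than Hist3h2a, and Hist1h2bc, Hist2h2be and Hist1h2bq had more than Hist1h2bg, but no stem-loop was found in them. The histone stem-loop motif, the letters in capitals below with any base allowed at 5 of the 16 positions, was searched on the sense strand of GENCODE M21 transcripts (GRCm38, the same assembly as mm10). It was found in 35 of the 53 replication-dependent members with an annotated transcript and in 1 of 10 replacement members (H2afx). Counted by single transcript and not by gene, the share over all 141767 transcripts was 0.0875%. Of the 89 genes with a match in at least 1 transcript, 36 were members. Some members without a match have short annotated transcripts, such as 312 bases for Hist1h4k and 381 for Hist1h2bl. A stem-loop past the annotated end would be missed, so a gene without a match may still have one. Capitals mark the 16 motif bases, with 5 bases on each side, and all sequences run 5′ to 3′ on the strand of the gene.
Hist1h1c: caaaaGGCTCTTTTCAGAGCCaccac
Hist3h2a: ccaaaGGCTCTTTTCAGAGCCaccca
Hist1h2bg: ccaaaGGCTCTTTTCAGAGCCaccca
Hist2h3c2: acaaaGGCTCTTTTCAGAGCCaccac
Hist1h3b: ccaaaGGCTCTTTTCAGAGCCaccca
Hist1h4i: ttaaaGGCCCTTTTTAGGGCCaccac
Hist1h4h: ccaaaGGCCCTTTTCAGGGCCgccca
Hist1h4j: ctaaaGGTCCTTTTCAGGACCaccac
H2afx: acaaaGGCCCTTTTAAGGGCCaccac
They lie at chr13:23739507-23739532 (plus strand) for Hist1h1c, chr11:58955167-58955192 (plus) for Hist3h2a, chr13:23571838-23571863 (plus) for Hist1h2bg and chr3:96238480-96238505 (minus) for Hist2h3c2. Those of Hist1h3b, Hist1h4i, Hist1h4h and Hist1h4j lie at chr13:23752815-23752840 (plus), chr13:22040961-22040986 (minus), chr13:23531453-23531478 (plus) and chr13:21735432-21735457 (plus), and that of H2afx at chr9:44335235-44335260 (plus). Histone stem-loops stand in the 3′ untranslated part of the message.

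Among replication-dependent genes the stem differed between H4 and the other classes. The stem GGCTC paired with GAGCC was in each replication-dependent H1, H2A, H2B and H3 gene that held the motif. The H4 members had GGCCC paired with GGGCC in 9 genes and GGTCC paired with GGACC in Hist1h4j. H2afx, a replacement variant of H2A, had the stem seen in those 9 H4 genes.

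Genes that also make a polyadenylated form carry a cleavage signal further down. AATAAA or ATTAAA stood in the last 50 bases of at least 1 transcript of 15 of the 53 replication-dependent and 9 of the 10 replacement members. Counted by single transcript and not by gene, the share over all transcripts was 33.7%. Signals are given in capitals for the Hist1h1c, Hist1h4i and H2afx messages, which also hold the stem-loop motif. Those of Hist2h2be and H3f3b, in which the motif was not found, are given as well.
Hist1h1c: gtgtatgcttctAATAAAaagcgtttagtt
Hist1h4i: ggttctgtttacATTAAAagtattctatgc
H2afx: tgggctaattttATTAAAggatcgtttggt
Hist2h2be: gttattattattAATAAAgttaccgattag
H3f3b: ataggccttacaAATAAActagtaagtttg
They lie at chr13:23740330-23740359 (plus), chr13:22040639-22040668 (minus), chr9:44336031-44336060 (plus), chr3:96223705-96223734 (plus) and chr11:116021987-116022016 (minus), in that order. In Hist1h1c and H2afx the counted gene ran 840 and 822 bases past the stem-loop to this second end.

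Replacement variants held almost all histone reads. Levels between genes are given as FPKM, the deposited counts per kilobase of gene and 1000000 counts. The mean FPKM over 6 libraries had a median of 35.4 over the 11 replacement members and of 0.163 over the 55 replication-dependent members. H3f3b (190 FPKM), H1f0 (177 FPKM), H2afz (171 FPKM) and H2afj (106 FPKM) were the most abundant. Hist1h1c (35.9 FPKM), Hist1h2bc (17.6 FPKM) and Hist1h2al (12.6 FPKM) were the only replication-dependent members above the 3.12 FPKM of Hist1h4i. In raw reads, 23 of the 55 replication-dependent genes had under 10 counts over all 6 libraries together and 48 had under 100, with a median of 13. Depth allows no firmer statement on those genes, since 3 counts, the limit that a count of 0 allows, correspond to 0.102 to 0.168 CPM per library and cover counting error only. CPM is counts per 1000000 of the TMM-scaled library size. The replacement members H2af-ps and H2afy3 had 3 and 5 counts, and each of the other 9 had over 400 counts, from 410 for H2afy2 to 69068 for H3f3b.

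**Figure D1:**
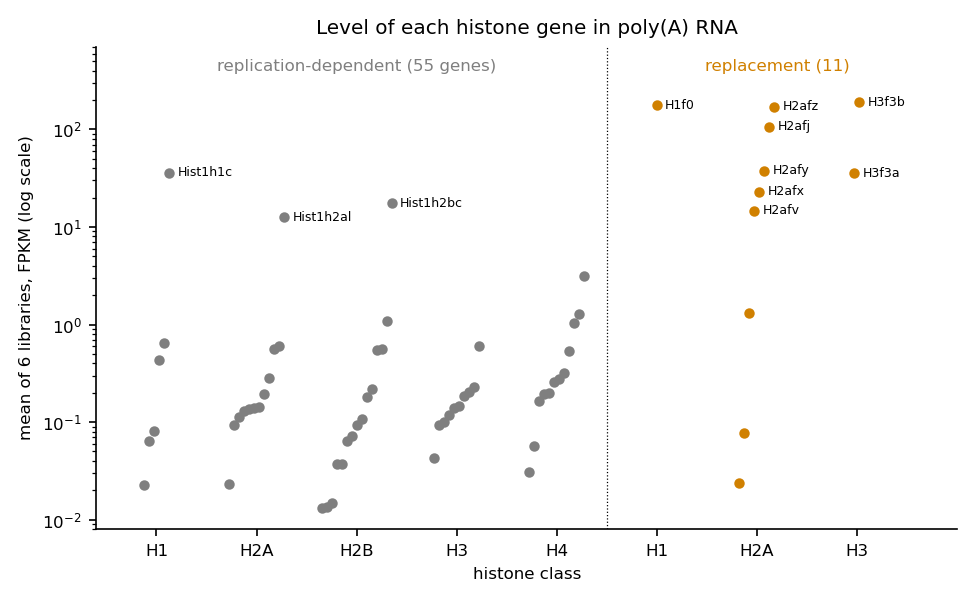
Mean FPKM over 6 libraries (log scale) of each of the 66 histone genes, by class and kind, with names for genes above 10 FPKM. Most replication-dependent genes lie below 1 FPKM, with Hist1h1c, Hist1h2bc and Hist1h2al standing above them at 35.9, 17.6 and 12.6 FPKM, while replacement genes reach 190 FPKM.

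Within each class that has both kinds, replacement genes supplied most of the reads in every library. For H3 they supplied 99.7% to 99.9% of the counts, for H2A 98.3% to 99.4%, and for linker histones, through H1f0 alone, 86.4% to 88.9%. By FPKM the shares were 98.9% to 99.8%, 94.2% to 98.3% and 80.8% to 84.2%. H2B and H4 had no replacement member under the rule. Their replication-dependent genes summed to 11.3 to 23.6 CPM for the 15 H2B genes and 1.94 to 8.68 CPM for the 12 H4 genes. Hist1h1c made up 54.7% to 79.6% of all replication-dependent counts. These shares describe polyadenylated RNA and not the pool of histone messages in the cell.

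Where the counted gene ended was compared with its level. In 12 replication-dependent genes the deposited gene interval, introns included, ran more than 100 bases past the stem-loop. In 23 it ended within 100 bases of it, and in 18 no stem-loop was found in the annotated sequence. The 12 include Hist1h2bp (1 count), whose interval ran 1275 bases past the stem-loop. No annotated transcript of Hist1h2bp holding the stem-loop ran more than 38 bases past it. Median FPKM values were 0.231, 0.163 and 0.138, with quartiles of 0.0953 and 0.574, 0.0609 and 0.38, and 0.0949 and 0.483, so the bulk of the 3 groups overlapped. Their highest genes differed. Hist1h1c stood at 35.9 FPKM among the extended genes and Hist1h4h at 1.27 FPKM among those ending near the stem-loop. The highest of those in which no stem-loop was found was Hist1h2bc at 17.6 FPKM. Hist2h4 and Hist4h4, extended by 1257 and 2445 bases, had only 56 and 14 counts. For 14 replication-dependent genes the longest GENCODE transcript exceeded the counted length by more than 100 bases, for example 2482 against 476 bases for Hist1h2ac, which had 10 counts. The extra length is not always at the 3′ end. An annotated transcript of Hist1h2ac ran 2010 bases past the stem-loop against 28 in the counted gene. For Hist1h3f both ran 365 bases past it. Reads from the uncounted stretches would not be in these counts.

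**Figure D2:**
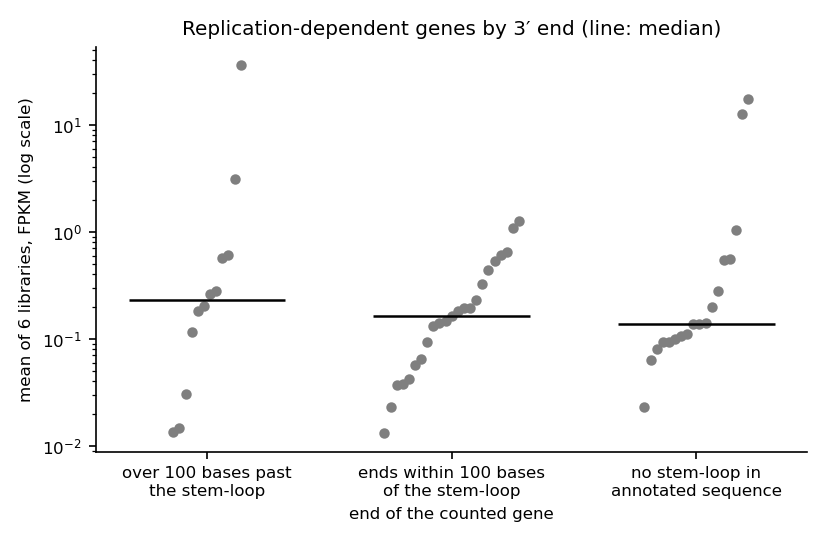
Mean FPKM over 6 libraries (log scale) of replication-dependent histone genes, grouped by how far the deposited gene interval, introns included, runs past the stem-loop, with a line at each median. The medians of 0.231, 0.163 and 0.138 FPKM lie close together and a few genes in the first and last groups stand far above.

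Near-identical copies make several values uncertain. Of the 100-base stretches of a member's transcripts, a median of 31.1% over 53 replication-dependent genes also occurred in the transcripts of another gene, and 16 of the 53 shared over 50%. Over 10 replacement members the median was 3.86% and the highest value 25.7%, for H2afz. Hist1h1c shared 5.07%, Hist1h4i 15.1%, Hist1h2bc 25.4% and Hist1h2bq 94.8%. Hist1h2al, which lies apart from the cluster on chromosome 13 and is a processed pseudogene in GENCODE, shared 19.2% of its 100-base and 67.6% of its 50-base stretches. The sources used here give neither the read length nor the treatment of multiply mapped reads. The deposited intervals of 23 members, introns included, overlap an exon entry of another identifier in GENCODE. Mostly this is a microRNA entry opposite an H2A gene. Of the other members described below, H1f0, H2afy, H3f3a and H2afy2 overlap a gene on the opposite strand (for H2afy2 the coding gene Aifm2, over 233 bases). On the same strand, Hist3h2a overlaps Trim17 over 708 bases and Hist1h2be overlaps an exon entry of the member Hist1h1e over 496 bases. Whether an overlap lies in a counted exon or in an intron of the member was not checked. Without strand, reads from shared exon stretches cannot be told apart.

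Promoters were compared as a feature that the choice of members did not use. Windows from 250 bases before to 50 after the start came from RefSeq (GRCm38.p6) and were matched for 49 replication-dependent and 8 replacement members. CCAAT, the NF-Y binding letters, stood on either strand in 83.7% of the replication-dependent promoters and in 41.1% of the promoters of all 27025 genes. It was in every window of the 6 H1, 11 H2A, 13 H2B and 8 H3 genes and in 3 of 11 H4 genes. TATAAA was in 61.2% against 15.7% of all. The octamer ATTTGCAT, letters that the factor OCT1 binds, was in 6 of 11 H2A and 6 of 13 H2B genes, in 0 of the 25 H1, H3 and H4 genes, and in 1.97% of all. Of the members, 7 pairs of an H2A and an H2B gene start under 500 bases apart in opposite directions, so these windows are not independent. Among the 8 replacement members CCAAT was in 6, TATAAA in 1 and the octamer in 1.

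Ezh2 was read first as a check of the genotype. It stood at 7.13, 7.28 and 5.84 CPM in the KO libraries against 19.3, 22.6 and 14.7 CPM in the WT libraries, so the groups did not overlap. Its log2 fold change (KO over WT) was −1.48 ± 0.20 (SE) with an adjusted p of 0.0755 in edgeR's quasi-likelihood test with Benjamini-Hochberg adjustment, and 1.46e-07 in DESeq2. A two-sided exact permutation test of CPM could not go below p = 0.1 with 20 arrangements, and reached it. Libraries held 18292722 to 29203634 counts, with all KO libraries deeper than the deepest WT library. Epithelial markers were all expressed (14 of 14, summed level 5412 to 6502 CPM). Fibroblast markers (8 of 8 tested) summed to more than the epithelial ones in every library except WT replicate 1, where they summed to 3254 CPM. Pairs of WT libraries differed more (chi-square per gene 73.8 to 145) than pairs of KO libraries (13.8 to 22.6).

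No histone gene passed the test between KO and WT organoids. Only 22 of the 66 members had enough reads to be tested, 13 replication-dependent and 9 replacement. The edgeR test called 0 of these 22 at an adjusted p under 0.05 and 0% of the 14196 genes tested. DESeq2 called 0 of the same 22, of which it gave 18 an adjusted p. Over all 14196 genes, with or without an adjusted p, it called 7.37% (3.4% lower and 3.97% higher in KO). At an unadjusted p under 0.05 edgeR held 3 members with lower values in KO (10.9% of all genes) and 0 with higher values (8.93%). The same 3 members, Hist1h1c, H3f3b and H2afz, were those with every KO library below every WT library, a share of 3 of 22 against 14.6% of all genes tested, and 0 of 22 had every KO library above every WT library, against 14.2%. In the lower direction both shares were close to those of all genes, and in the higher direction they were below them, a difference that was not tested. The median log2 fold change was −0.19 over the replication-dependent and −0.21 over the replacement members, with −0.05 over all genes tested. Without WT replicate 2 the medians were −0.0088 and −0.079, without WT replicate 1 the former was −0.56, and without WT replicate 3 the latter was −0.34. Fold changes were negative for 10 of 13 and 9 of 9 members, against 55.5% of all genes, but without WT replicate 2 for 14 of the 22 members against 53.2% of all, and H1f0 stood at 0.0047 with no filter on low counts. An adjusted p stood beside 20 members in the authors' deposited table, 0 of them under 0.05, and the lowest was 0.142 for H2afz (6.18% of the genes in that table with an adjusted p were under 0.05). Over all genes edgeR made 38 calls when WT replicate 1 was left out. Leaving out WT replicate 2 in its place gave 216 calls (1.49%), 0 of them among the 22 members.

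**Figure D3:**
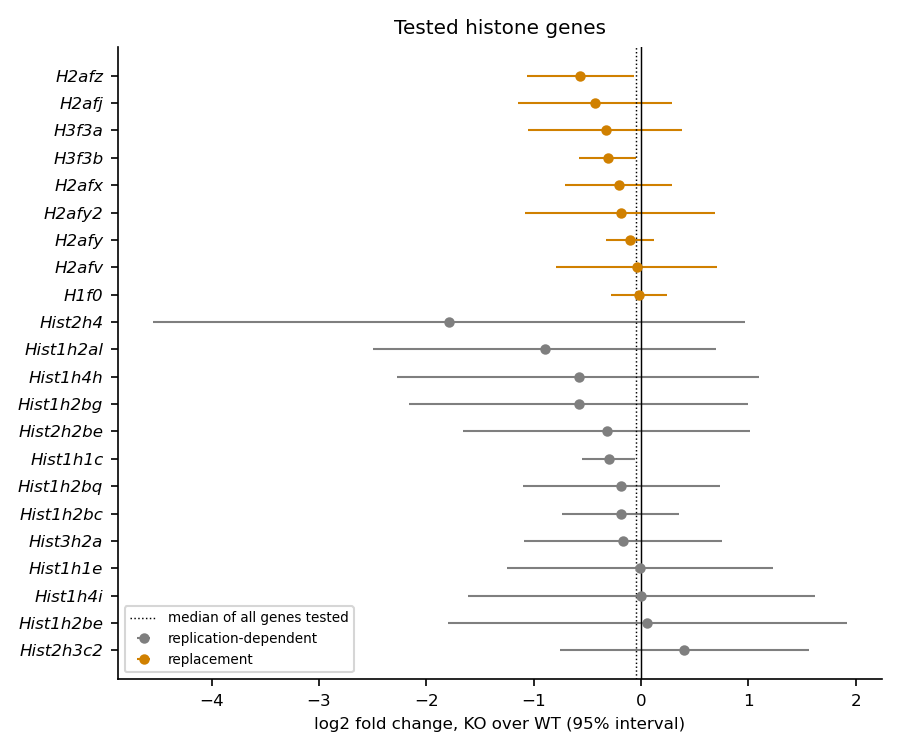
Log2 fold change (KO over WT) with its 95% interval for the 22 histone genes tested, by kind, with a dotted line at the median of all genes tested (−0.05). The intervals of H2afz, H3f3b and Hist1h1c lie below 0 and the other 19 include it.

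The main linker histone messages were even within each group. Hist1h1c, which encodes the linker variant H1.2, stood at 53.2, 46.7 and 50.7 CPM in the KO libraries against 66.9, 60.6 and 58.4 CPM in the WT libraries. Every KO value was below every WT value. The log2 fold change was −0.30 ± 0.10 (SE; 95% interval −0.55 to −0.06) with an edgeR adjusted p of 0.187, and −0.14 (adjusted p 0.603) once each library's trend on gene length was removed. H1f0, a linker variant of slowly dividing and differentiated cells, stood at 421, 381 and 406 CPM in the KO libraries against 440, 392 and 391 CPM in the WT libraries, which overlapped. Its log2 fold change of −0.02 ± 0.11 (SE) had a 95% interval of −0.28 to 0.24. The remaining H1 members were low: Hist1h1e had 70 counts in all, Hist1h1d 45 and Hist1h1b 9.

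H3.3, the replacement form of H3, comes from H3f3a and H3f3b, which encode the same protein. H3f3b stood at 444, 427 and 403 CPM in the KO libraries against 545, 556 and 482 CPM in the WT libraries. These groups did not overlap. Means were 425 ± 20.9 CPM for KO and 528 ± 39.8 CPM for WT (SD, n = 3 per group). On the log2 scale KO over WT came to −0.31 ± 0.11 (SE; 95% interval −0.58 to −0.04; edgeR adjusted p 0.206). H3f3a stood at 84.9, 93.5 and 86.9 CPM in the KO libraries against 69.8, 171 and 93.5 CPM in the WT libraries. Its WT libraries enclosed the KO values, and the log2 fold change moved from −0.33 to 0.12 when WT replicate 2 was left out. Replication-dependent H3 genes, which encode the forms laid down at replication, had 197 counts in all over 10 genes, 93 of them in Hist2h3c2. Hist2h3c2 held 30, 15 and 15 counts in KO and 11, 16 and 6 counts in WT libraries, a log2 fold change of 0.40 ± 0.50 (SE) that ran from 0.0029 without KO replicate 1 to 0.77 without WT replicate 2.

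Variants of H2A differed in how their WT libraries spread. H2afz, the gene of H2A.Z.1, which marks promoters, stood at 152, 142 and 147 CPM in the KO libraries against 173, 298 and 182 CPM in the WT libraries. Every KO value was below every WT value, and WT replicate 2 stood apart. The log2 fold change was −0.57 ± 0.21 (SE; edgeR adjusted p 0.214), or −0.27 both without WT replicate 2 and with the length trend removed. H2afv, which encodes the sister form H2A.Z.2, stood at 23.4, 23.9 and 22.7 CPM in the KO libraries against 15.3, 38.0 and 18.9 CPM in the WT libraries. Its log2 fold change was −0.04 ± 0.32 (SE) and became 0.45 without WT replicate 2.

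H2afj, the gene of H2A.J, a variant known from senescent human fibroblasts, held 182, 159 and 151 CPM in the KO libraries against 123, 316 and 224 CPM in the WT libraries. The groups overlapped through WT replicate 1, and the log2 fold change was −0.43 ± 0.31 (SE). It became −0.08 when WT replicate 2 was left out and −0.70 when WT replicate 1 was. H2afx encodes H2A.X, which is phosphorylated around DNA breaks, and is the replacement member with the stem-loop shown above. It stood at 32.9, 25.9 and 29.7 CPM in the KO libraries against 28.8, 45.9 and 27.7 CPM in the WT libraries, with WT replicate 2 alone above the KO range. H2afy, the gene of the large repressive variant macroH2A1, was even, at 159, 139 and 143 CPM in the KO libraries against 163, 154 and 157 CPM in the WT libraries. Its paralog H2afy2 (macroH2A2) was low, from 1.83 to 4.70 CPM.

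Spread was ranked only among tested replication-dependent core histone genes with reads in every library. Of these, Hist1h2al, Hist1h4i, Hist1h4h, Hist1h2bg and Hist2h2be varied most among WT libraries (ratios of highest to lowest of 4.86 to 7.95). Tested replacement variants reached at most 2.56. Hist1h2be (2.59) lay just above that, and Hist2h3c2 (2.3), Hist1h2bq (2.17), Hist3h2a (1.98) and Hist1h2bc (1.85) lay below it. Some ratios rest on few reads, such as 4, 19 and 14 WT counts for Hist1h2bg, so counting error enters them. Hist1h2bc, an H2B gene, stood at 12.7, 11.2 and 12.2 CPM in the KO libraries against 9.25, 17.1 and 15 CPM in the WT libraries. Hist1h2al stood at 4.90, 2.65 and 2.31 CPM in the KO libraries against 1.43, 11.3 and 5.71 CPM in the WT libraries. Hist1h4i, an H4 gene, stood at 3.41, 1.87 and 1.47 CPM in the KO libraries against 0.778, 4.73 and 1.23 CPM in the WT libraries. In all 3 genes WT replicate 2 was the highest and WT replicate 1 the lowest library. Log2 fold changes were −0.19 ± 0.23, −0.90 ± 0.68 and 0.0028 ± 0.69 (SE), and without WT replicate 2 they were −0.0058, −0.096 and 1.18. Without WT replicate 1 that of Hist1h2al was −1.36. The H2B genes Hist2h2be and Hist1h2bq and the H2A gene Hist3h2a averaged 1.46, 1.17 and 1.2 CPM over 6 libraries, with WT replicate 2 highest in each. Hist2h4 was listed at 0 in KO replicates 2 and 3 and at 16 counts in KO replicate 1, against 10, 17 and 13 counts in WT libraries. The H2B gene Hist1h2bg and the H4 gene Hist1h4h, whose counted ends lie near the stem-loop, had 72 and 83 counts in all and log2 fold changes of −0.58 ± 0.67 and −0.58 ± 0.72 (SE). Without WT replicate 2 these were −0.16 and −0.031, without WT replicate 1 that of Hist1h2bg was −1.03, and without KO replicate 3 that of Hist1h4h was −1.27. Other low members of the most abundant per class, Hist1h2ae, Hist1h4k, Hist1h3e, Hist1h3c, Hist1h2af and Hist1h3d, had 13 to 44 counts in all.

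**Figure D4:**
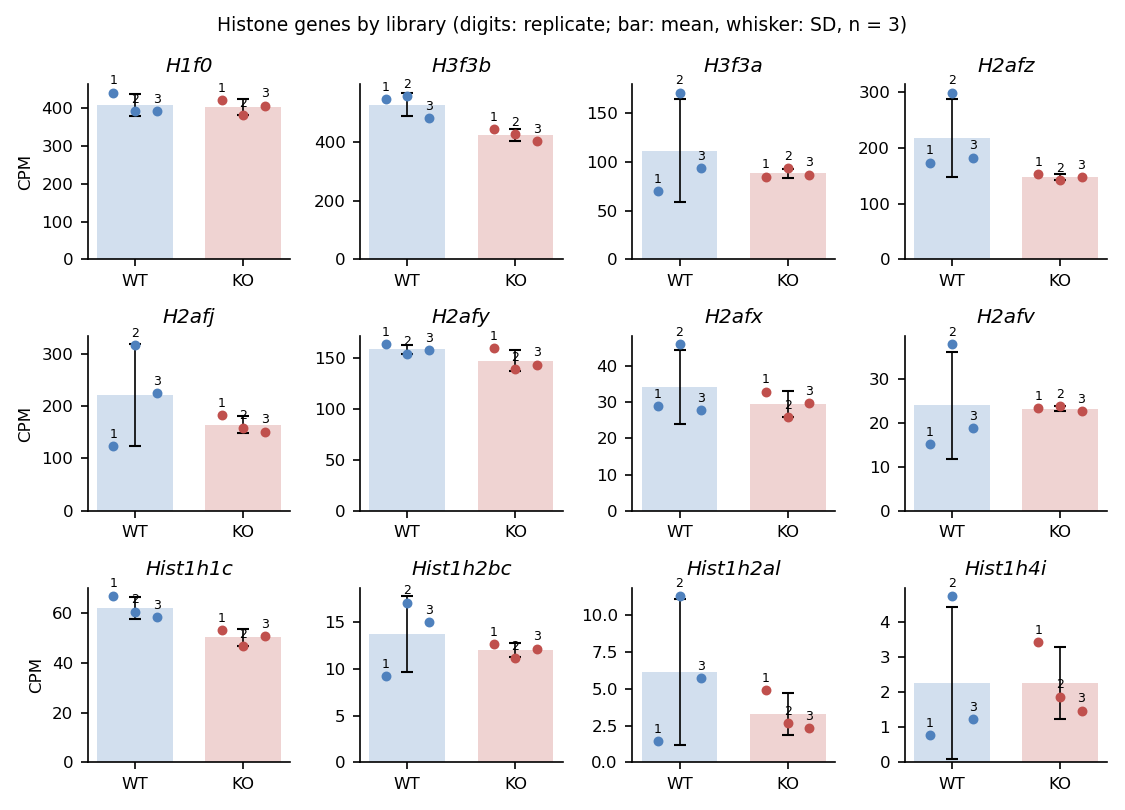
CPM of 12 histone genes in each library (points, with the replicate number), with the mean (bar) and SD (whisker) of 3 libraries per group. KO points lie below all WT points for H3f3b, H2afz and Hist1h1c, and WT replicate 2 is the highest library for H3f3b, H3f3a, H2afz, H2afj, H2afx, H2afv, Hist1h2bc, Hist1h2al and Hist1h4i.

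For most members the spread among WT libraries was wider than that among KO libraries. For 21 tested members with reads in every library, the ratio of the highest to the lowest library had a median of 2.4 among WT and 1.31 among KO libraries, against 1.45 and 1.17 over 14154 genes. Hist1h2al had the widest WT ratio at 7.95, and H2afy the narrowest at 1.06. The WT ratio exceeded the KO ratio for 19 of the 21 members, and for 81.7% of all genes.

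The order of the WT libraries in histone reads was set beside that of cell cycle genes, a comparison chosen after these values were seen. The 54 replication-dependent genes other than Hist1h1c summed to 17.2, 50.2 and 34.6 CPM in WT replicates 1 to 3 and to 31.1, 24.6 and 24.9 CPM in KO replicates. Listed mitosis genes summed to 46.5, 487 and 159 CPM across WT and 293, 276 and 178 CPM across KO libraries, and S-phase genes to 451, 940 and 581 CPM and to 716, 665 and 599 CPM. WT replicate 2 was highest and WT replicate 1 lowest for 24 of 24 mitosis genes, 28 of 44 S-phase genes, 7 of 13 replication-dependent and 3 of 9 replacement members, against 10.5% of all genes tested. Hist1h1c did not follow it, and was highest in WT replicate 1. Immune markers summed to 143, 1518 and 433 CPM across WT libraries and lay between 157 and 231 CPM across KO libraries, and fibroblast markers to 3254, 10353 and 15165 CPM across WT libraries and between 10281 and 11861 CPM across KO libraries. Their part in the histone values was not tested, and in bulk RNA fewer cells of a type and less RNA per cell cannot be told apart. Leaving out WT replicate 2 left Hist1h1c, H3f3b and H2afz with KO below WT (3 of 22 members against 22.5% of genes) and put H2afv, Hist1h4i and Hist2h3c2 with KO above WT (3 of 22 against 20.8%). The median over the 22 members was then −0.04, against −0.20 with all libraries.

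**Figure D5:**
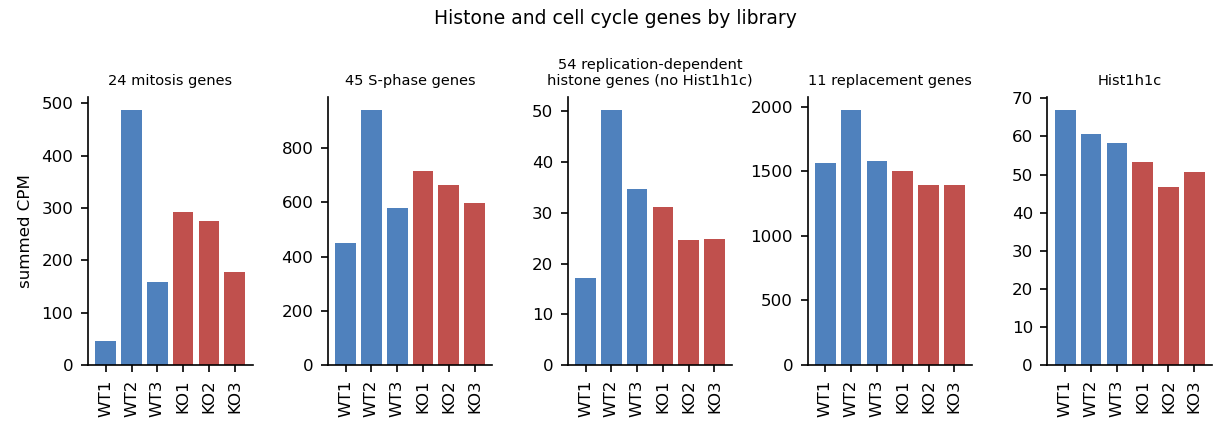
Summed CPM in each library (WT blue, KO red) of listed mitosis and S-phase genes, of 54 replication-dependent histone genes, of 11 replacement genes, and of Hist1h1c alone, each on its own axis from 0. WT replicate 2 is highest in the first 4 panels and WT replicate 1 is lowest in the first 3, while Hist1h1c runs from 46.7 to 66.9 CPM with WT replicate 1 highest.

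A sum over genes of one kind does not move when reads pass between its own copies. All 55 replication-dependent genes summed to 84.3, 71.3 and 75.5 CPM in the KO libraries against 84.1, 111 and 93.0 CPM in the WT libraries, means of 77.0 ± 6.62 and 95.9 ± 13.6 CPM (SD, n = 3 per group). The groups met at KO replicate 1 and WT replicate 1, and the log2 ratio of the means was −0.32. Without Hist1h1c the log2 ratio was −0.34, and it ran from −0.64 without WT replicate 1 to 0.055 without WT replicate 2. Replacement genes summed to 1502, 1393 and 1392 CPM in the KO libraries against 1561, 1972 and 1582 CPM in the WT libraries, a log2 ratio of −0.25, or −0.14 without WT replicate 2. Every KO sum was below every WT sum for the replacement genes. H3f3b and H1f0 added the most reads to these sums, though H1f0 itself differed little, with means of 402 CPM for KO and 408 CPM for WT.

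Genes that make and end histone messages showed no shared direction. Of 31 listed genes of histone message processing 29 were tested, with a median log2 fold change of −0.0049, 0 calls in edgeR and 1 in DESeq2, against 7.37% of all genes called by DESeq2. The DESeq2 call was the poly(A) binding protein gene Pabpn1, which averaged 6.41 ± 0.21 CPM over KO and 10.9 ± 2.67 CPM over WT libraries (SD, n = 3 per group). At an unadjusted p under 0.05 edgeR held 3 of the 29 with lower values in KO (10.9% of all genes) and 1 with higher values (8.93%). These were Pabpn1, Lsm4, a ring protein of message decay, and Nelfe, a pausing factor subunit, with log2 fold changes of −0.77, −0.51 and −0.30, and Casp8ap2, a factor of histone transcription, at 0.29.

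Histone chaperones, which carry histones to DNA, had a median of −0.03 over 32 tested genes, with 0 calls in edgeR and 1 in DESeq2 (7.37% of all genes). That call was Ubn1, a subunit of the HIRA complex that deposits H3.3, with means of 148 ± 5.26 CPM over KO and 119 ± 2.41 CPM over WT libraries (SD, n = 3 per group). Its log2 fold change was 0.31 ± 0.09 (SE; edgeR adjusted p 0.142, DESeq2 0.0223). Vps72, a subunit of the H2A.Z exchange complex, had a log2 fold change of −0.35 ± 0.10 (SE), the H3-H4 cochaperone Dnajc9 one of −0.54 ± 0.15 and Ep400, a remodeler that exchanges H2A.Z, one of 0.45 ± 0.14. Over 44 S-phase genes the median was −0.03, with 0 calls in edgeR and 1 in DESeq2, the nucleotide enzyme gene Dut (−0.63 ± 0.17, SE). Over 24 mitosis genes it was −0.08, with 0 calls in either. In both lists the DESeq2 calls were a smaller share than the 7.37% of all genes.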

How the data were processed

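Poly(A) RNA was fragmented, reverse transcribed from random hexamers and amplified by PCR, per the labels' protocols, which name no step that marks the strand. Per the submitters' processing notes, CASAVA, STAR and mm10 were used, and the sources used here give no versions, counting tool or annotation. Per the file headers, the deposited table held raw read counts per gene and library and FPKM values. FPKM by the authors equalled the count per kilobase and 1000000 counts (largest relative difference 2.1e-07). The authors' signal columns (mean normalized counts per group) were not printed. The deposited log2 fold change and p-values come from the authors' own test and are quoted only as such.

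Counts of 6 libraries (3 per group) went into a robust quasi-likelihood F test of edgeR 4.0.16 (R 4.3.3) over 14196 genes, after TMM scaling and edgeR's own filter (minimum count 10, minimum total 15). P-values were Benjamini-Hochberg adjusted with a threshold of 0.05. Alternatives were DESeq2 1.42.0, other scalings and filters, a replicate block, leaving out each library, limma 3.58.1 trend on log2(FPKM + 1) or log2(FPKM + 0.1), thinning to the smallest total, no robust estimation, and removal of each library's trend on gene length. The sum of FPKM and the sum without Hist1h1c were added after seeing the data. The edgeR script was tested on simulated data. GENCODE M21 transcripts, matched by identifier for 63 of 66 members, gave 3′ ends. A motif match describes letters, not a bound site. Named genes are replacement variants of at least 1 CPM, the 4 most abundant replication-dependent genes per class, and the list genes with the smallest p. Members and lists were chosen with earlier results of these data known. Without molecular identifiers PCR copies stay in the counts.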

Additional observations from a re-analysis of the deposited data

How the results depend on the processing

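The number of genes called by edgeR, 0, was 1046 in DESeq2, 131 with no filter, 2 with limma-trend at either pseudocount, and 0 to 216 when a library was left out (38 without WT replicate 1, 216 without WT replicate 2). Of the histone genes each of the 17 alternatives could fit, from 16 to all 66 with no filter, 0 passed (lowest adjusted p 0.0711, for H2afj without WT replicate 1). Ezh2 stayed negative in all, passing in DESeq2 (−1.47), with no filter (−1.46) and without WT replicate 2, with a range of −1.63 to −1.33 over left-out libraries. Medians ran from −0.56 (without WT replicate 1) to −0.0088 (without WT replicate 2) for replication-dependent and from −0.34 to −0.079 for replacement members, and summed log2 ratios from −0.39 to −0.20 and −0.30 to −0.14 over left-out libraries. Of 21 named members tested, 10 kept their direction throughout. With a library left out, direction changed for H3f3a (−0.57 to 0.12), H2afx (−0.34 to 0.062), H2afy2 (−0.45 to 0.25), H2afv (−0.27 to 0.45), H1f0 (−0.05 to 0.053), Hist1h1e (−0.35 to 0.38), Hist3h2a (−0.34 to 0.22), Hist2h2be (−0.71 to 0.44), Hist1h2bq (−0.41 to 0.18) and Hist1h4i (−0.42 to 1.18). Removing the length trend turned H2afx (0.0099), H2afv (0.14), H1f0 (0.058), Hist1h1e (0.35) and Hist1h2bc (0.20). H2afv was 0.056 and 0.067 with limma-trend, H1f0 0.0047 and Hist1h1e 0.014 with no filter, Hist1h1e 0.0058 with RLE, and Hist1h4i −0.072 with upper-quartile scaling, −0.01 with a filter of 1 CPM and −0.071 after thinning. The cause was not tested. The replicate block gave 0 calls and turned H2afv (0.068). Same-numbered libraries correlated at −0.0695, 0.25 and 0.0765 in their deviations from group means, so the numbers were not taken to pair samples, and not every library correlated best with its own number.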
